A study of Mus musculus with 7 samples.

Results

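The scavenger and efferocytosis receptors are cell surface proteins with which phagocytes bind modified lipoproteins, microbes, debris and dying cells. The group was chosen as a list of 10 gene names: Cd36, Stab1, Msr1, Marco, Mrc1, Cd163, Cd68, Mertk, Axl and Scarb1. On the arrays 11 probes carried a RefSeq accession of 9 of these genes, out of 20018 genes named in that way. Cd68, the lysosomal glycoprotein macrosialin, had no probe paired with it by the gene table and was not analysed here. Testing required a signal well above background on 3 or more of the 7 arrays, and 7 of the 9 genes met this, among 14549 genes in all. Mertk and Cd163 did not pass and are given as values only.

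Scavenger receptors differ in structure and share a broad choice of ligands. Those of class A (Msr1, Marco) take up modified lipoproteins and bacteria, and those of class B (Cd36, Scarb1) handle oxidised lipoprotein, fatty acids and high density lipoprotein. Efferocytosis, the uptake of apoptotic cells, depends on phosphatidylserine, a lipid that dying cells expose. Stabilin-1 (Stab1) binds it directly, while the receptor tyrosine kinases Tyro3, Axl and Mertk (the TAM family) bind it through the bridging proteins Gas6 and protein S. Most of these receptors are textbook features of macrophages, and several are also found on dendritic cells.

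The RNA came from dendritic cells grown out of common myeloid progenitors of C57BL/6 mice with floxed Gata2 alleles, and each sample was read on a one-colour Agilent array. The protocols name Gata2(f/f)/ER-Cre donors, whose Cre recombinase is switched on by tamoxifen, and Gata2(f/f) donors with no Cre. The 3 arrays labelled knockout were taken to be from the donors with Cre and the 4 control arrays from those without, which the labels do not spell out. All donors received tamoxifen between days 1 and 10, and progenitors were sorted on days 20 to 22. They were grown with FLT3 ligand (200 ng/ml) on bone marrow feeder cells of SJL mice, and the labels do not state how feeder cells were removed at harvest. They give neither age nor the number of animals behind the replicates, and the p-values therefore rest on the spread between these samples alone, which may be technical. In bulk RNA, fewer cells of a type and less RNA per cell cannot be told apart, for any gene below.

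Values are log2 processed signals relative to each array's 75th percentile, so 0 is a bright spot and -6 a dim one, and levels of different probes are not comparable. Gata2, the targeted gene, read 2.93, 3.00 and 3.06 on the arrays labelled knockout, against -0.25 to 0.36 on the controls, higher where the label would have it deleted. The labels do not state which part of the gene the Cre removes or whether the probe lies in it, and every direction below is that of the arrays as labelled. The dimmest signal counted as well above background was -7.29 ± 0.28 (SD, n = 3) on the arrays labelled knockout and -5.76 ± 0.28 (SD, n = 4) on the controls, so dim genes were measured further down in the first group. The labels give no slide position, which was inferred from the names of the scans, and these place each group in a row of its own. If that is right, an effect of the row would look the same as a difference between the groups. The same holds for an effect of the Cre, if only the donors of the arrays labelled knockout carried it. Control replicate 3 stood apart in the genes described here: it was the highest of the 7 arrays for all 7 tested receptors, against 15.6% of the 14549 tested genes. That share counts genes highest on arrays labelled knockout too, whereas all 7 receptors leaned lower there. Control replicate 2 was highest in 25.3% of genes. The receptors are therefore also given without control replicate 3. So are other genes of uptake and clearance where leaving it out ended a call or moved the fold by over 1.5 times.

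Cd36 and Stab1 fell in the arrays labelled knockout, and none of the 7 tested receptors rose. Of these, 2 were lower at a limma adjusted p under 0.05, where 1.38% of all tested genes were lower and 1.49% higher. At an unadjusted p under 0.05, 5 receptors were lower and none higher, where 7.35% of all genes were lower and 6.14% higher. In 3 receptors (Cd36, Stab1 and Axl) all arrays labelled knockout lay below all controls, a pattern that 8.08% of genes showed, with 5.77% showing the opposite. All 7 differences were negative, as were those of 58.0% of all genes tested, though a second probe of Scarb1 gave 0.19. Their median log2 fold change was -0.87, beside a median of -0.05 over all genes tested. The same 2 receptors passed when control replicate 3 was left out. Without it Msr1, Mrc1, Axl and Scarb1, which did not pass, had log2 fold changes of -0.82, -0.57, -0.70 and -0.04 (adjusted p = 0.333, 0.496, 0.314 and 0.975).

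**Figure D1:**
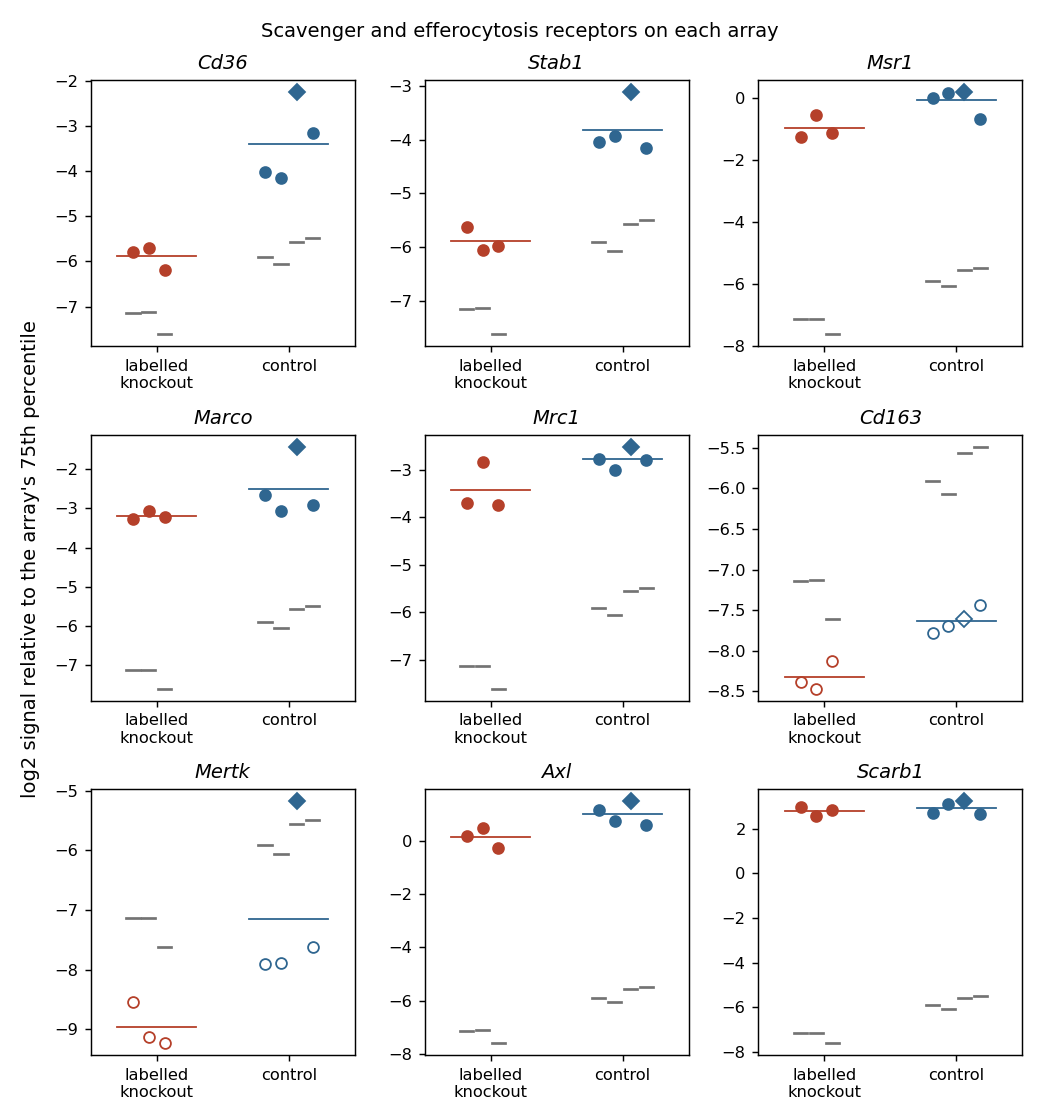
Log2 signal relative to the array's 75th percentile (y axis) of the 9 receptors with a probe, on the 3 arrays labelled knockout (left, red) and the 4 controls (right, blue). Open symbols are not well above background, the diamond is control replicate 3, coloured lines are group means and short grey lines mark each array's dimmest signal well above background. Cd36 and Stab1 stand 2.50 and 2.07 log2 units lower on the arrays labelled knockout, while Cd163 lies under the grey lines on every array.

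Because Cd36 and Stab1 fell together, the stretch from 250 bases before to 50 after the start of each gene is shown, from RefSeq's table on GRCm38.p6. It is chr5:17835847-17836146 on the minus strand for Cd36 and chr14:31168592-31168891 on the minus strand for Stab1. Capitals mark TGCTGA, the first letters of the palindrome bound by Maf factors, and GGAAGT, the core bound by Ets factors such as PU.1, each searched on both strands, so that a match on the other strand reads ACTTCC.
Cd36: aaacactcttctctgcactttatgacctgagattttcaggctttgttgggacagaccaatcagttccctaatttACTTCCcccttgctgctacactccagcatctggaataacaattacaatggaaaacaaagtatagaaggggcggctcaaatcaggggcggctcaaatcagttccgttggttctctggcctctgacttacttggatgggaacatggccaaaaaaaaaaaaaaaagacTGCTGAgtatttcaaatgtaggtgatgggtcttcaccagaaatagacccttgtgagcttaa
Stab1: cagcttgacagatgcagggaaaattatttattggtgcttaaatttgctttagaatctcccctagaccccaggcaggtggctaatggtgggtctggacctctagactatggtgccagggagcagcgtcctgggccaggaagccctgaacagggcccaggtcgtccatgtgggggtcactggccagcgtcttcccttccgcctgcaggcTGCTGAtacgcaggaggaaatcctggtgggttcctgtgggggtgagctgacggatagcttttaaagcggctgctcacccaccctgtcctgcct
TGCTGA occurred 1 time in each, starting at position -11 in Cd36 and -43 in Stab1, and in 19.5% of 32851 promoters of this length. GGAAGT occurred 1 time in Cd36, at position -176, not in Stab1, and in 23.8% of promoters. AGGTCA, the nuclear receptor recognition hexamer, occurred in Cd36 at position -228 on the other strand, not in Stab1, and in 16.3% of promoters. GATAA, the core of the GATA motif, was in neither window, and in 25.4% of promoters, and so its longer forms AGATAA and TGATAA (11.2% and 9.05% of promoters) were in neither. Promoters were held for 8 of the 10 genes. Among the other 6, TGCTGA and AGGTCA were found in none, GGAAGT in Mrc1 and Cd68, and GATAA in Cd163 alone. These are letter matches, not sites.

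Cd36 encodes the class B scavenger receptor that takes up oxidised lipoprotein and long-chain fatty acids and binds thrombospondin-1. It read -5.78, -5.70 and -6.19 on replicates 1, 2 and 3 labelled knockout, against -4.02, -4.15, -2.25 and -3.16 on control replicates 1 to 4. The groups did not overlap, and the controls were spread more widely (SD 0.88, n = 4) than the arrays labelled knockout (SD 0.26, n = 3), with replicate 3 on top. Cd36 was 5.64-fold lower (log2 fold change -2.50, SE 0.44, limma adjusted p = 0.0215). It was well above background on all 7 arrays. Its distance over the dimmest such signal of the same array was 1.35 to 1.43 log2 units in the arrays labelled knockout, against 1.89 to 3.31 in the controls. Feature Extraction's own error estimate was 13.7% to 19.0% of the signal on the arrays labelled knockout and 10.3% to 12.9% on the controls. With control replicate 3 left out it was 4.33-fold lower (adjusted p = 0.0123), and 3.38-fold lower with normexp background correction (adjusted p = 0.0123). Leaving out replicate 1, 2 or 3 labelled knockout ended the call (adjusted p = 0.0727, 0.0597 and 0.0994), and so did leaving out control replicate 4 (adjusted p = 0.0579). The log2 fold change in these 4 fits was -2.59 to -2.35, and the adjusted p over all 21 alternatives was 0.00771 to 0.134.

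Stab1 encodes stabilin-1, a receptor of macrophages and of sinusoidal endothelium for phosphatidylserine and for modified lipoprotein. It read -5.63, -6.05 and -5.98 on the arrays labelled knockout, against -4.04, -3.94, -3.12 and -4.16 on the controls. The groups did not overlap, and control replicate 3 was again on top. Stab1 was 4.21-fold lower (log2 fold change -2.07, SE 0.26, adjusted p = 0.00439) and well above background on all 7 arrays. Its distance over the dimmest such signal of the same array was 1.07 to 1.63 log2 units in the arrays labelled knockout. In the controls that distance was 1.32 to 2.44, so the groups overlapped in it, control replicate 4 being the lowest control. Feature Extraction's error estimate was 16.1% to 19.7% of the signal on the arrays labelled knockout and 11.2% to 15.5% on the controls. The call held in all 21 alternative settings (adjusted p from 0.00134 to 0.0384), and the fold was 3.58 without control replicate 3 and 2.41 with normexp background correction.

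**Figure D2:**
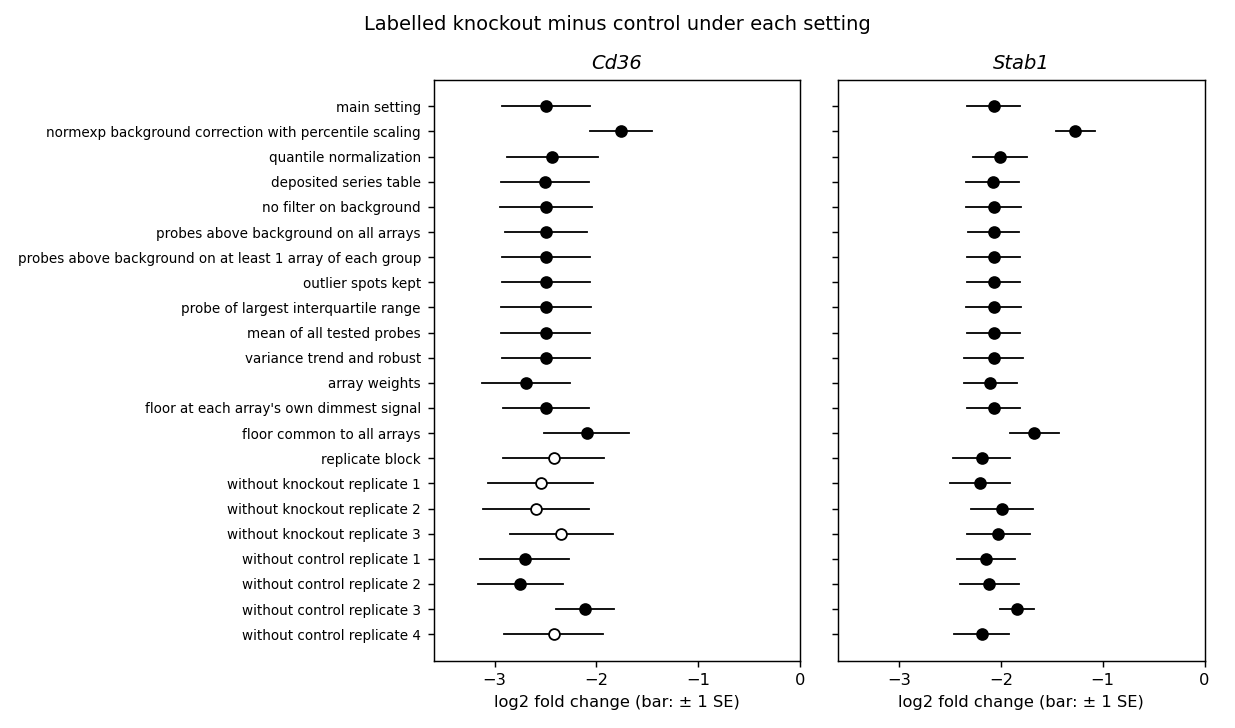
Log2 fold change (x axis, labelled knockout minus control, bar ± 1 SE) of Cd36 and Stab1 in the main setting and 21 alternatives (rows); filled symbols have an adjusted p under 0.05. Stab1 is filled in every row, and Cd36 is open in 5 rows at a log2 fold change of -2.35 or lower.

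The class A receptors did not pass the test. Msr1, the macrophage scavenger receptor for acetylated and oxidised lipoprotein, read -1.28, -0.54 and -1.15 on the arrays labelled knockout, against 0.00, 0.16, 0.18 and -0.68 on the controls. Replicate 2 labelled knockout lay above control replicate 4, so the groups overlapped, and the log2 fold change was -0.91 (95% interval -1.51 to -0.30, adjusted p = 0.153). A second, dimmer probe with the same accession read -4.28, -3.93 and -3.80 on the arrays labelled knockout, against -3.23, -3.72, -2.96 and -2.96 on the controls, without overlap, at a log2 fold change of -0.78 (adjusted p = 0.219 over 33955 probes). With the mean of both probes Msr1 passed (log2 fold change -0.85, adjusted p = 0.0447), as it did with array weights (adjusted p = 0.0428) and once control replicate 4 was left out (adjusted p = 0.0495). Over all 21 alternatives its adjusted p was 0.0428 to 0.461.

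Marco, a receptor of macrophages for bacteria and inhaled particles, read -3.27, -3.06 and -3.22 on the arrays labelled knockout, against -2.65, -3.07, -1.42 and -2.90 on the controls. Control replicate 3 was the highest array, and control replicate 2 lay within the arrays labelled knockout. The log2 fold change was -0.67 (95% interval -1.51 to 0.17, adjusted p = 0.488). With control replicate 3 left out it was -0.31 (adjusted p = 0.606).

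Mrc1, the mannose receptor, a lectin that internalises glycoproteins, read -3.70, -2.85 and -3.76 on the arrays labelled knockout, against -2.79, -3.01, -2.52 and -2.79 on the controls. Replicate 2 labelled knockout lay within the controls and the other 2 lay below them. The log2 fold change was -0.66 (95% interval -1.21 to -0.11, adjusted p = 0.263), and -0.95 without replicate 2 labelled knockout, where it passed (adjusted p = 0.0349). It also passed with array weights (log2 fold change -0.89, adjusted p = 0.0323), and its adjusted p over all 21 alternatives was 0.0323 to 0.708.

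Cd163, which clears haptoglobin-bound haemoglobin, stayed below the limit for well above background on all 7 arrays. Its probe read -8.39, -8.47 and -8.12 on the arrays labelled knockout, against -7.78, -7.70, -7.61 and -7.44 on the controls. These values lie at the level of the negative control spots, whose medians averaged -8.78 ± 0.41 (SD, n = 3) on the arrays labelled knockout and -7.59 ± 0.14 (SD, n = 4) on the controls, so no fold is given. Hmox1, which degrades the haem taken up through this receptor and was singled out after its values were seen, had a log2 fold change of -0.55 (adjusted p = 0.0937), without overlap of the groups, and -0.11 on a second probe.

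**Figure D3:**
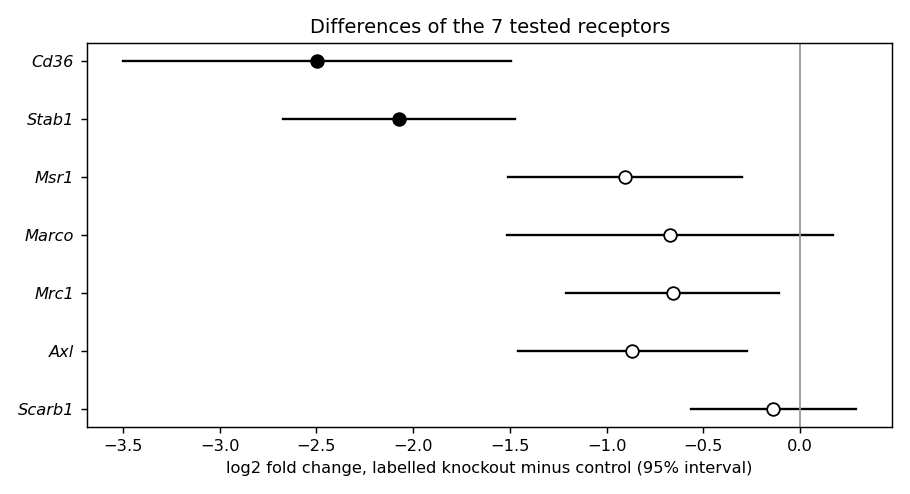
Log2 fold change (x axis, labelled knockout minus control) of the 7 tested receptors with 95% intervals of the limma fit; filled symbols have an adjusted p under 0.05. Only Cd36 and Stab1 are filled, and the intervals of Marco and Scarb1 cross 0.

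Of the TAM receptors and their ligands, Tyro3 and Gas6 rose, Axl and Pros1 did not pass the test, and Mertk was measured on 1 array alone. Axl, the TAM kinase that answers to Gas6, read 0.19, 0.49 and -0.24 on the arrays labelled knockout, against 1.18, 0.76, 1.50 and 0.61 on the controls. The groups did not overlap, replicate 2 labelled knockout and control replicate 4 being closest, but the difference did not pass (log2 fold change -0.87, 95% interval -1.46 to -0.28, adjusted p = 0.162). With array weights it passed (log2 fold change -1.13, adjusted p = 0.0342), and its adjusted p over all 21 alternatives was 0.0342 to 0.524.

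Mertk, the TAM kinase best known for the clearance of apoptotic cells by macrophages, read -8.53, -9.13 and -9.23 on the arrays labelled knockout, against -7.90, -7.88, -5.18 and -7.62 on the controls. It was well above background on control replicate 3 alone, at 73.8 intensity units, where the other 6 arrays gave between 6.15 and 15.7. No fold is given, since 6 of 7 arrays did not measure it.

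Tyro3, the remaining TAM kinase, read -2.04, -2.77 and -2.39 on the arrays labelled knockout, against -4.30, -3.77, -3.79 and -4.39 on the controls, without overlap. It was 3.18-fold higher (log2 fold change 1.67, SE 0.23, adjusted p = 0.00732), while a second probe of the gene gave a log2 difference of 0.78.

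Gas6, the bridging protein common to the TAM kinases, read -2.49, -3.18 and -2.70 on the arrays labelled knockout, against -4.08, -3.69, -3.61 and -3.94 on the controls. It was 2.06-fold higher (log2 fold change 1.04, SE 0.20, adjusted p = 0.0339). Leaving out replicate 1 or 3 labelled knockout or any 1 of the 4 controls ended that call (adjusted p from 0.0540 to 0.153), as did normexp background correction (adjusted p = 0.0714). Pros1, which encodes protein S and was singled out after its values were seen, had a log2 fold change of -0.27 (adjusted p = 0.565).

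**Figure D4:**
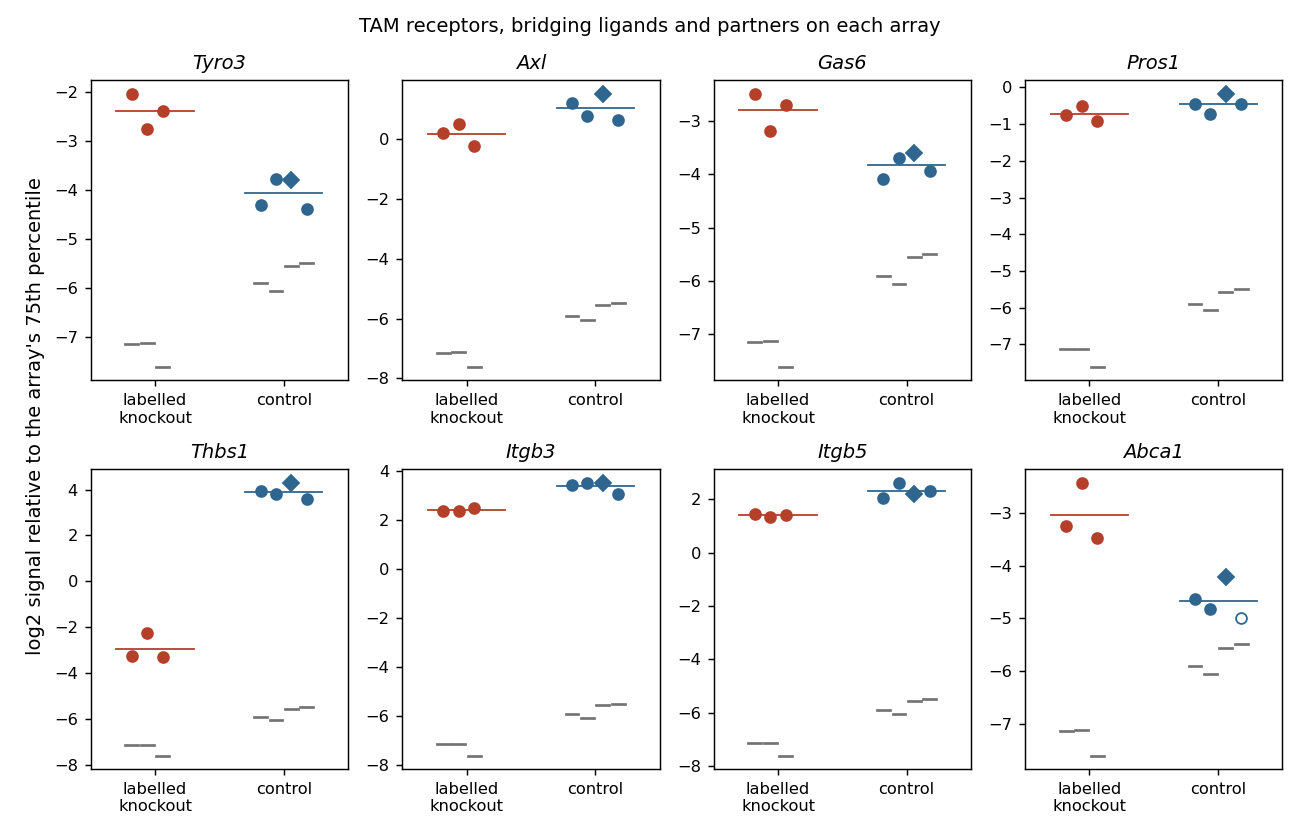
Log2 signal relative to the array's 75th percentile (y axis) of Axl and of ligands and partners of the receptors, drawn as for the 9 receptors: arrays labelled knockout left in red, controls right in blue, diamond for control replicate 3, open for not well above background, lines for group means, grey lines for each array's dimmest signal well above background. Tyro3, Gas6 and Abca1 are higher and Thbs1, Itgb3 and Itgb5 lower on the arrays labelled knockout, with no overlap.

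Scarb1, the receptor through which cells take up cholesteryl esters from high density lipoprotein, showed no difference that passed. Its brighter probe read 2.97, 2.58 and 2.85 on the arrays labelled knockout, against 2.72, 3.12, 3.23 and 2.68 on the controls, at a log2 fold change of -0.14 (95% interval -0.56 to 0.29, adjusted p = 0.811). Its other probe, with the same accession, read 0.47, 0.92 and 0.70 on the arrays labelled knockout, against 0.63, 0.01, 0.61 and 0.78 on the controls, at a log2 fold change of 0.19 (adjusted p = 0.794 over 33955 probes). The groups overlapped on both probes and the probes differed in sign.

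Other genes of uptake and clearance were counted in lists, whose counts stand beside 1.38% lower and 1.49% higher among all tested genes and whose medians stand beside -0.05. A list of 20 or fewer genes gives no precise share. Of 9 tested bridging ligands, 2 fell and 1 rose, with a median log2 fold change of -0.30. Thbs1, whose product thrombospondin-1 is a ligand of Cd36, read -3.24, -2.26 and -3.31 on the arrays labelled knockout, against 3.95, 3.82, 4.31 and 3.58 on the controls (115-fold lower, log2 fold change -6.85, adjusted p = 3.11e-05). C1qc, a chain of the complement protein C1q, which coats dying cells, fell too (log2 fold change -3.72, adjusted p = 0.0165). Of the 3 arrays labelled knockout 1 showed it well above background, and its log2 fold change was -2.08 with a floor common to all arrays and -1.92 with normexp background correction. Leaving out replicate 1 or 3 labelled knockout gave an adjusted p of 0.0706 or 0.0779. C1qb, another chain of C1q singled out after its values were seen, was well above background on every array and did not pass. Its log2 fold change was -0.41 (adjusted p = 0.461) and the groups overlapped. The remaining chain gene, C1qa, was not tested. Gas6 was the ligand that rose.

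Of 12 tested other receptors for apoptotic cells, 4 fell and 1 rose (median -0.47), and Tyro3 was the one that rose. Cd14, a co-receptor for lipopolysaccharide that also tethers apoptotic cells, was 3.05-fold lower (adjusted p = 0.000234) and kept its call in all 21 alternatives. Itgb3 and Itgb5, the beta chains that pair with the alpha v chain to bind the bridging protein MFG-E8, were 1.96-fold and 1.86-fold lower (adjusted p = 0.0117 and 0.0251). Itgav, the alpha v gene itself, singled out after its values were seen, had a log2 fold change of -0.12 (adjusted p = 0.891), with a second probe at 0.11. Cd300lb, an activating receptor of the CD300 family, was 2.21-fold lower (adjusted p = 0.0263). With each array left out in turn, Cd300lb lost its call in 5 of 7 fits (adjusted p from 0.0610 to 0.114) and Itgb5 in 5 of 7 (adjusted p from 0.0569 to 0.106). Control replicate 3 was among the arrays concerned for both. Itgb3 lost its call once replicate 1 labelled knockout was left out (adjusted p = 0.0549) and with the mean of its probes (adjusted p = 0.0913).

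Of 7 tested other scavenger receptors none passed in limma (2 lower and 1 higher at an unadjusted p under 0.05, median -0.32). Scarf2, a scavenger receptor of class F, had a log2 fold change of -0.69 (adjusted p = 0.248). Scarf1, of the same class, was measured above background on only part of the arrays, 2 of the 3 labelled knockout and 2 of the 4 controls. Its log2 fold change of -0.73 (adjusted p = 0.735) ran from -1.32 to -0.19 over the alternatives, so its size is not settled. Cd209a, a lectin of the DC-SIGN family singled out after its values were seen, had a log2 fold change of -0.66 without overlap of the groups (adjusted p = 0.0617). A second probe of Cd209a gave a log2 difference of -0.38. Of 16 tested genes of the engulfment machinery, which carries the signal from receptor to cytoskeleton and sheds or restrains receptors, none passed either (1 lower and 0 higher at an unadjusted p under 0.05, median -0.08), and 1 of 16 is near the 7.35% of all genes lower at that p. Socs3, an inhibitor of cytokine signalling, had a log2 fold change of -0.89 (adjusted p = 0.155), and Adam10, a sheddase, -0.35 (adjusted p = 0.484).

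Of 20 genes of lipid sensing and efflux, 1 fell and 1 rose, with a median of -0.12. Apoe, which encodes the lipid carrier apolipoprotein E, was 1.94-fold lower (adjusted p = 0.0113), a call that ended when replicate 1 or 3 labelled knockout was left out (adjusted p = 0.0507 and 0.0660). Abca1, the exporter that hands cholesterol to lipid-poor apolipoproteins, read -3.24, -2.42 and -3.47 on the arrays labelled knockout, against -4.63, -4.83, -4.21 and -5.00 on the controls. It was not well above background on control replicate 4. Abca1 was 3.08-fold higher (adjusted p = 0.0215), 1.83-fold with normexp background correction (adjusted p = 0.0603). Leaving out replicate 1 labelled knockout or 1 of control replicates 1, 2 and 4 ended the call (adjusted p from 0.0529 to 0.0584). Nr1h3, which encodes the oxysterol sensor LXR alpha, and Fabp4, a fatty acid carrier of macrophages and fat cells, were singled out after their values were seen. Nr1h3 had a log2 fold change of 0.64 (adjusted p = 0.294). Fabp4 read -8.44, -5.85 and -5.61 on the arrays labelled knockout, against -3.52, -3.41, -0.39 and -3.79 on the controls. The groups did not overlap, but the difference did not pass (log2 fold change -3.85, 14.4-fold lower, adjusted p = 0.0937). Replicate 1 labelled knockout was not well above background, and with control replicate 3 left out the difference was 8.32-fold (log2 fold change -3.06, adjusted p = 0.0926). Among 14 macrophage transcription factors 3 fell and none rose (8 lower and 0 higher at an unadjusted p under 0.05, median -0.56), among them Maf at 3.44-fold (adjusted p = 0.00765) and Tfec at 2.53-fold (adjusted p = 0.00106).

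**Figure D5:**
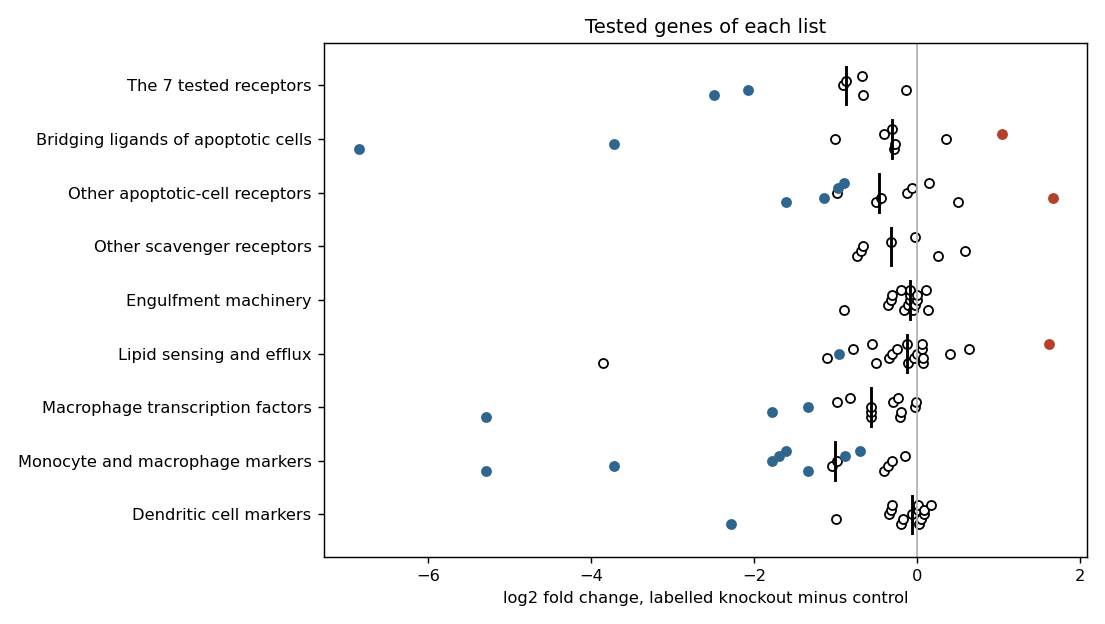
Log2 fold change (x axis, labelled knockout minus control) of each tested gene in the lists named at the left. Filled blue is lower and filled red higher at an adjusted p under 0.05, open did not pass, and black bars are list medians. The bar of the 7 receptors stands at -0.87, that of the monocyte and macrophage markers at -1.01 and that of the dendritic cell markers at -0.06.

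Marker lists of several other cell types also differed between the groups. Their counts stand beside 1.38% lower and 1.49% higher among all tested genes. At an unadjusted limma p under 0.05 the shares of all genes were 7.35% lower and 6.14% higher. Among 14 tested markers of monocytes and macrophages that are not themselves in the group, 8 fell and none rose (median log2 fold change -1.01), and some of them, such as Cd14, C1qc and Maf, also stand in the lists above. Their summed signal, over all 17 with a probe and in multiples of the array's 75th percentile, was 81.9 to 93.0 on the arrays labelled knockout and 126 to 143 on the controls. Such a sum, here and below, weighs each gene by the brightness of its probe. It follows the brightest probes and is not an amount of RNA. Within the list Csf1r, the receptor of the macrophage growth factor, had a log2 fold change of -0.30 (adjusted p = 0.472), while Adgre1, which encodes F4/80, was lower (log2 fold change -0.88, adjusted p = 0.0202), and both were singled out after their values were seen. Timd4, a marker of resident macrophages, did not reach that limit on any array. Of 15 tested dendritic cell markers 1 fell, the lectin gene Clec10a (log2 fold change -2.28, adjusted p = 0.000187), with a list median of -0.06 and a summed signal of 353 to 416 on the arrays labelled knockout and 383 to 465 on the controls. None of 4 tested endothelial markers passed in limma (0 at an unadjusted p under 0.05), and 3 others, Emcn, Lyve1 and Flt4, were well above background on 0 of 7 arrays. Their summed signal was 4.47 to 4.83 on the arrays labelled knockout and 4.70 to 7.0 on the controls.

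Outside these lists, 5 of 7 tested mast cell and basophil markers fell (median -3.86) and Gata2, also on that list, rose. Their summed signal, Gata2 included, was 14.9 to 18.3 on the arrays labelled knockout and 18.2 to 30.1 on the controls. On the arrays labelled knockout the brightest were Gata2 and Kit, at group means of 2.99 and 2.92 in log2. Kit did not pass (adjusted p = 0.688). The 5 that fell had group means of -8.38 to -1.29 there and of -4.52 to 2.53 on the controls, so the sum shows little of their fall. Of 5 platelet and megakaryocyte markers 3 fell, among them Pf4, the platelet factor 4 gene (log2 fold change -0.91, adjusted p = 0.0472), with a summed signal of 25.9 to 31.9 on the arrays labelled knockout and 44.3 to 69.8 on the controls. Most of that sum was Pf4, with group means of 4.81 and 5.72 in log2. Platelets also carry Cd36 and thrombospondin-1. Of 8 neutrophil markers 2 fell and all 8 were lower at an unadjusted p under 0.05 (median -2.08), with a summed signal of 39.2 to 56.0 on the arrays labelled knockout and 69.8 to 75.5 on the controls. The brightest in that sum was Mpo, with group means of 4.93 and 5.39 in log2, which did not pass (adjusted p = 0.146). Both tested natural killer cell markers, Nkg7 and Gzma, rose, as did 1 of 4 T cell markers, Lck. From the same natural killer list, Ncr1 and Klrb1c were bright enough on too few arrays to be tested, Ncr1 on none. The summed signal of all 4 was 10.3 to 12.9 on the arrays labelled knockout and 2.19 to 2.85 on the controls. Most of it came from the Nkg7 probe, with group means of 3.46 and 1.22 in log2, against -0.56 and -3.93 for that of Gzma. Whether the number of natural killer cells differed was not tested. None of 4 B cell, 3 erythroid and 4 stromal markers passed in limma (0, 0 and 1 at an unadjusted p under 0.05). The part that the numbers of monocytes, macrophages, platelets or other cells play in the values of Cd36, Stab1 and Thbs1 was not tested.

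For the receptors that passed, the most similar genes over the 7 arrays were taken from the genes well above background on all of them. Igsf6, Alas1 and Commd6 followed Stab1 most closely, at Pearson correlations of 0.998, 0.987 and 0.986, or 0.989, 0.919 and 0.899 after the group means were subtracted. Srgn, Med4 and Eif1b followed Cd36 at 0.986 each, or 0.975, 0.970 and 0.977 after subtraction. They were picked as the highest of 12824 genes, both groups enter the first correlation, and control replicate 3 was the highest array for both receptors. None of the Cd36 trio passed the test between groups (adjusted p = 0.455, 0.645 and 0.223), while Igsf6 and Alas1 were lower (adjusted p = 0.0260 and 0.0148). Each of these 2 calls was lost in 5 of 21 alternatives, at adjusted p up to 0.150 for Igsf6 and 0.179 for Alas1, whose call also ended when control replicate 3 was left out (adjusted p = 0.0532).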

How the data were processed

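Total RNA was amplified, labelled with Cy3 and hybridised to 7 one-colour arrays, per the labels' protocols. The authors deposited 1 scanner file per array with the intensity of each spot, and per the file headers the program was Feature Extraction 10.7.3.1. The deposited series table holds log2 values centred on each probe's median, which was found by comparison with the scanner values, since its scale, centring and direction are not stated; its column medians were 0, except -0.02 for replicate 3 labelled knockout. It was used as an alternative.

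From the log2 of the processed signal the 75th percentile over the array's spots other than controls was subtracted; spots marked as outliers were then dropped and repeated spots averaged per probe. Probes were named by unversioned RefSeq accession through a table of assembly GRCm38.p6 (26413 of 55681 probes), and a gene was read from its tested probe with the highest mean. In limma 3.58.1 (R 4.3.3), lmFit and eBayes compared the groups with no block, with Benjamini-Hochberg adjustment over 14549 genes. The fit was tested on simulated data. The number of arrays limits the precision, and no spot was saturated.

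The receptors, gene lists and motifs were chosen with earlier results of these data known. All 10 receptors were named, and of each list up to 4 genes a direction past the threshold, or the 2 with the largest change; for each receptor past the threshold, the 3 most similar genes. A further gene taken by this rule is not reported here. Normexp used the median signal and its background. Same-numbered replicates of the groups did not deviate together (correlations -0.10, -0.17 and -0.05), so the numbers were not taken to pair samples.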

Additional observations from a re-analysis of the deposited data

Results flagged for a closer look

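In 2 genes a control value stood far from the other 3 by Dixon's test, among 38 genes tested in the 4 controls, and chance flags about 1 in 20. Mertk read -5.18 on control replicate 3, against -7.90, -7.88 and -7.62 on the other controls, where it was not well above background. Fabp4 read -0.39 on control replicate 3, against -3.52, -3.41 and -3.79. It was singled out after its values were seen, so the 1 in 20 does not apply to it.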

How the results depend on the processing

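Over 21 alternatives for each of the 7 tested receptors, 135 of 147 values kept both their direction and their side of the threshold. A receptor that did not pass and stayed so counts as kept. For receptors with 1 probe, such as Cd36 and Stab1, the background filters, probe rules and variance trend cannot change the log2 fold change. Those settings can move the adjusted p alone, so the share is no measure of how firm the directions are. Cd36 lost its call in 5, Msr1, Mrc1 and Axl gained one in 6 between them, and Scarb1 changed sign with the mean of its probes (log2 fold change 0.027). That mean takes in the second Scarb1 probe, at 0.19, beside the brighter one at -0.14. Med4, named for its likeness to Cd36, changed sign with the probe of largest interquartile range (0.16) and with the mean of its probes (0.0067). The cause of the changes other than that of Scarb1 was not tested. The count of receptors lower was 5 with array weights, 3 with the mean of probes, 3 with no filter on background (Cd163 among them, adjusted p = 0.0183, though its signal was not well above background), 1 with the replicate block, 1 at a threshold of 0.01 and between 1 and 2 with an array left out, and none was higher in any setting. Over all genes, 2483 were lower and 365 higher with no filter on background, 374 and 380 with array weights, 95 and 86 with the replicate block, and 96 and 108 at a threshold of 0.01. With an array left out, between 105 and 179 were lower and between 88 and 225 higher. Of the list genes, 10 were lower, or 17 with no filter, 5 with the replicate block and 5 to 10 with an array left out. Another 3 were higher, or 1 with normexp background correction, 0 with the replicate block and 1 to 3 with an array left out. The replicate block ended the calls of Cd36 (adjusted p = 0.134), Tyro3 (0.0976), Gas6 (0.224), C1qc (0.0975), Cd300lb (0.178), Itgb3 (0.0675), Itgb5 (0.198), Maf (0.0675), Apoe (0.156), Abca1 (0.167), Igsf6 (0.150) and Alas1 (0.179); Fabp4 gained one (0.0431). Stab1, Thbs1, Cd14 and Tfec kept theirs. Only the controls have a replicate 4, so under the block that array adds nothing to the difference, and fewer degrees of freedom remain. The log2 fold changes equal those without control replicate 4 (Cd36 -2.42, Stab1 -2.19). Signals of Cd36 and Stab1 on the arrays labelled knockout lay under the floor common to all arrays (-5.49), and with it they were 4.27-fold and 3.19-fold lower, both still called.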
